A study of Mus musculus with 6 samples.

Results

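The 35 genes described here encode the unfolded protein response and the quality control machinery of the endoplasmic reticulum (ER). They were listed by symbol, and all 35 were found among the 12615 rows of the deposited table, each on 1 row with 1 gene identifier. The study compared Ba/F3 cells, mouse pro-B cells that need interleukin-3 (IL-3) to grow, carrying human calreticulin (hCALR) with Ba/F3 cells carrying its type 1 mutant (hCALR-del52). Both constructs were delivered in the vector pMSCV-IRES-GFP, and both groups, with 3 replicates each, were kept in IL-3 at 1 ng/ml. Each transduced line carries 1 construct, so that a difference between the lines and an effect of the mutation cannot be told apart, and the labels do not say whether a line is a clone or a pool. Construct expression came from the vector and not from the endogenous gene.

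Proteins that enter the ER are folded by chaperones and oxidoreductases, and those that fail are sent back to the cytosol for degradation. When unfolded proteins accumulate, 3 sensors in the ER membrane, encoded by Ern1 (IRE1-alpha), Eif2ak3 (PERK) and Atf6, start a response that raises chaperone genes and slows translation. Calreticulin is itself an ER chaperone, and the type 1 deletion replaces its carboxy-terminal end, with the loss of the signal that retains it in the ER.

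The deposited table holds 1 FPKM value per group (fragments per kilobase of transcript, scaled for library size), so that group values carry no SD and the depth behind them is unknown. Where a pair of FPKM values is given, the first belongs to hCALR cells and the second to hCALR-del52 cells. The only measure of replicate error is the p-value of the authors' Cuffdiff test. A gene is called here when the authors' q, which they describe as a Benjamini-Hochberg adjusted p, is under 0.05. No source used here says which tests it was adjusted over, and the q of Xbp1 is smaller than the same adjustment over the rows of the table gives. Nothing in the labels says that the replicates were separate cultures, so that these p-values may measure technical spread only. In RNA from bulk cells, fewer cells of a type and less RNA per cell cannot be told apart. Of 13 pro-B markers only Cd79b was measured, at 8.64 and 5.09 FPKM, so that the labelled cell type could hardly be checked. Of 9 plasma cell markers only Xbp1, itself in the set, was measured. Of 7 myeloid markers 2 were measured, Mpo at 3.60 and 6.93 FPKM and Cebpe at 62.9 and 24.7 FPKM. Cebpe was called lower, and its part in the values below was not tested.

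Among the 35 genes, only Xbp1, which encodes the transcription factor that IRE1 activates, was called lower, and no gene of the set was called higher. The Xbp1 row stood at 88.4 and 48.4 FPKM, 1.83-fold lower. The other 34 genes were not called. A low ratio was nevertheless frequent: 30 of 35 genes had a lower FPKM in hCALR-del52 cells, with a median log2 ratio of -0.20. Over all 9667 genes with a symbol and a single identifier, 52.0% had a lower value and the median was -0.01. The log2 ratio is that of the group values after 1 FPKM was added to each.

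The authors' deposited test called 1.84% of all rows, 0.967% lower and 0.872% higher, and 1 call among 35 genes is to be read against that background. At an unadjusted p under 0.05, 3 genes of the set were lower and none higher, while 2.59% of all rows were lower at that level. The call of Xbp1 rests on q = 0.0420 in the authors' deposited table. After a renewed Benjamini-Hochberg adjustment that covers every row, which calls 0.729% of rows lower, its adjusted p was 0.127 and no gene of the set was called.

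Promoters of the set were searched for the known response elements of the pathway, which are shown here because ATF6 and XBP1 are known to act through them. A RefSeq promoter window of 300 bases (GRCm38.p6, 250 bases before and 50 after the start site) was at hand for 29 of the 35 genes. The ER stress response element (ERSE) is searched as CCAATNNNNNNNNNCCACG on both strands. It was in the windows of 6 of 29 genes (20.7%), those of Hspa5, Hsp90b1, Pdia6, Dnajc3, Creld2 and Syvn1, against 0.137% of 27025 genes with a window and 0.178% of the 7295 of them that were measured here. The related ERSE-II, ATTGGNCCACG, was in the windows of Herpud1 and Dnajb11, or 6.90% of 29 genes against 0.0444% of all. The half-site CCACG, which both elements contain, stood in 23 of 29 windows (79.3%) against 35.5% of all genes and 53.4% of measured genes. No window of the set held TGACGTGG, the core bound by XBP1 (0.714% of all), which contains the half-site on its other strand. The ATF4 element TTGCATCA was in 1 window, that of Herpud1 (1.03% of all). Xbp1, the 1 called gene, was not among the genes with a match to any of these 5 motifs. Whether it is 1 of the 29 genes with a window is not recorded here. A match is a string of letters and no measured binding. The motifs are known from genes of this response, so that a high share in the set tests nothing.

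The ERSE copies are printed 5′ to 3′ on the strand of the gene, with the element in capitals and 10 bases on either side. A copy in the reverse direction reads CGTGG first.
Hspa5 (chr2:34772015-34772053, plus strand): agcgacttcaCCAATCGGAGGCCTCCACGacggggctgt
Pdia6 (chr12:17266481-17266519, plus strand): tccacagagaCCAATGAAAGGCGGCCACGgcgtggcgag
Dnajc3 (chr14:118937817-118937855, plus strand): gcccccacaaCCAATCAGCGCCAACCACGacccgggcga
Syvn1 (chr19:6046522-6046560, plus strand): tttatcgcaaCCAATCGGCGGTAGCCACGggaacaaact
Creld2, reverse (chr15:88819510-88819548, plus strand): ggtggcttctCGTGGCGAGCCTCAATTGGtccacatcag
Hsp90b1, first copy (chr10:86705628-86705666, minus strand): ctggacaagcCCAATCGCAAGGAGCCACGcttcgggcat
Hsp90b1, second copy, reverse (chr10:86705523-86705561, minus strand): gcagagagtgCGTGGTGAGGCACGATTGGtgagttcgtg
Herpud1, with ERSE-II in capitals (chr8:94386367-94386397, plus strand): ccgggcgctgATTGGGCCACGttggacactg

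The centre of the ERSE of Hspa5, the only exact match in its window, lay 56 bases before the start site. That start site is the one of RefSeq. The deposited locus of Hspa5 starts earlier, at 34771970, so that the element lies inside it. The deposited locus of Herpud1, which starts at 94377921, likewise contains its ERSE-II. Inexact copies were not searched for and are not marked. The surroundings of the match are shown because Hspa5, which encodes BiP, is the textbook target of the response. The 250 bases before the start site (chr2:34771840-34772089, GRCm38.p6, plus strand), with the ERSE in capitals, read:
Hspa5: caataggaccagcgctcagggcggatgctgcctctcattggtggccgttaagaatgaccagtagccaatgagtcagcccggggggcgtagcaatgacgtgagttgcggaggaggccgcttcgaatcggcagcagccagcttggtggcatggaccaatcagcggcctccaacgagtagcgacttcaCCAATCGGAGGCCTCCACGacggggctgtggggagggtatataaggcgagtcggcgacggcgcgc

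Ratios were also listed by these elements. The 8 genes with an ERSE or ERSE-II had log2 ratios from -0.37 to 0.01 with a median of -0.18. The 21 with a window but neither element ranged from -0.87 to 0.15 with a median of -0.22. These medians describe the group values and were not tested against each other.

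IRE1 cuts an unconventional intron of 26 bases out of the Xbp1 messenger RNA, which shifts the reading frame and yields the active factor. The intron lies in exon 4 of 5 of the GENCODE transcript that spans the gene (chr11:5524279-5524304, mm10, plus strand, coding). It is shown because the FPKM of Xbp1 does not separate the cut from the uncut form. The intron, found as the stretch between 2 loops of the form CNGCAGC, is in capitals between its flanks:
Xbp1 (chr11:5524254-5524329, plus strand): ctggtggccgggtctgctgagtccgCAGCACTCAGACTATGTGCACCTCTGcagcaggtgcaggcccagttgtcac
Of 4 Xbp1 transcripts in GENCODE M21, 3 contain the intron and none joins its flanks, so that the annotation offers no separate entry for the cut form. The value of Xbp1 (ENSMUSG00000020484, chromosome 11, 5520659 to 5525943, mm10, protein coding) is that of the gene as a whole, and splicing was not analysed here.

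The genes with the lowest ratios of the set were Ern1, Xbp1 and Dnajb9, which were grouped here after their values were seen. Ern1 (ENSMUSG00000020715, chromosome 11, 106389154 to 106487892, mm10, protein coding), the gene of the sensor that cuts Xbp1, was at 64.9 and 34.9 FPKM. The authors' deposited table gave Ern1 a log2 fold change of -0.89, p = 0.0130 and q = 0.161, so that it was not called although its fold was as large as that of Xbp1 (log2 fold change -0.87, p = 0.00225). Dnajb9, which encodes the BiP co-chaperone ERdj4 and is a known target of spliced XBP1, was at 18.5 and 11.8 FPKM, with a log2 fold change of -0.65, p = 0.0179 and q = 0.201 in the authors' deposited table. These 3 genes are the ones with an unadjusted p under 0.05. Other genes known as XBP1 targets lay on both sides of the median of the set. Log2 ratios were -0.52 for Hyou1, -0.40 for Sec61b, -0.37 for Edem1 and -0.28 for Sec61a1. They were -0.20 for Dnajc3, -0.16 for Pdia6, -0.03 for Creld2 and 0.01 for Dnajb11. These are examples and no full list of targets. Without Ern1, Xbp1 and Dnajb9 the median log2 ratio of the other 32 genes was -0.20, with 27 below 0.

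**Figure D1:**
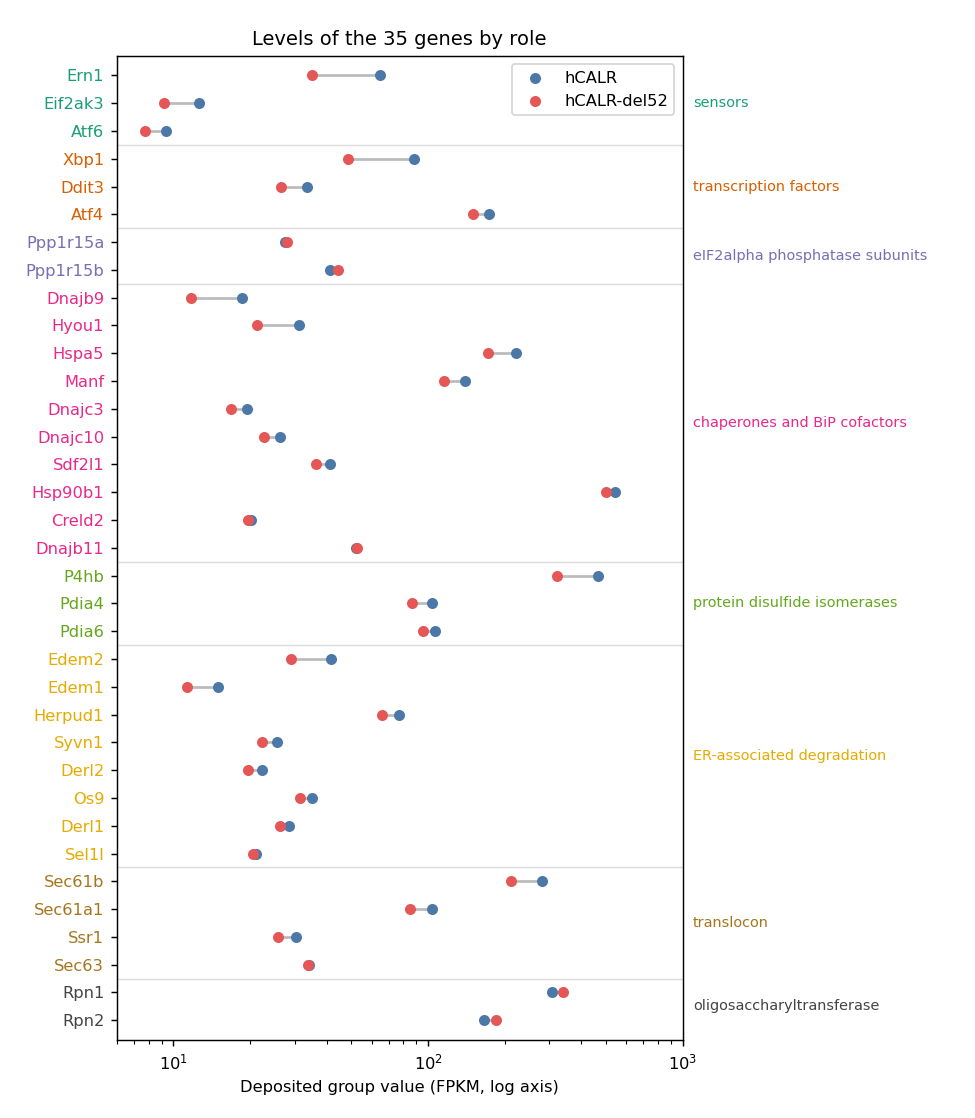
Deposited FPKM (log axis) of the 35 genes in hCALR (blue) and hCALR-del52 cells (red), 1 value per group and gene, ordered by role and then by ratio. The red point lies left of the blue one for 30 genes, and the gap is widest for Ern1 (64.9 and 34.9 FPKM) and Xbp1 (88.4 and 48.4 FPKM).

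The other 2 sensors stood lower in level and were not called. Eif2ak3, whose kinase phosphorylates the initiation factor eIF2-alpha, was at 12.6 and 9.20 FPKM. Atf6, the precursor of a transcription factor that is released by cleavage in the Golgi, was the gene of the set with the lowest level, at 9.32 and 7.71 FPKM. The PERK branch acts through Atf4, which is controlled largely at translation, and its messenger RNA was at 174 and 151 FPKM. Ddit3, which encodes the ATF4 target CHOP, was at 33.3 and 26.4 FPKM with p = 0.671 in the authors' deposited table. The genes that end PERK signalling had ratios just above 0. Ppp1r15a (GADD34), the inducible subunit that directs dephosphorylation of eIF2-alpha, was at 27.4 and 27.8 FPKM, and Ppp1r15b, its constitutive counterpart, at 41.1 and 44.2 FPKM.

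The group of 10 chaperones and BiP cofactors had 9 genes with a ratio below 0 and no call. Their levels ranged widely: the mean FPKM of Hsp90b1 and Hspa5 stood at the 98.5th and 96.0th percentile of all genes and that of Dnajb9 at the 43.7th. Hspa5 (ENSMUSG00000026864, chromosome 2, 34771970 to 34776531, mm10, protein coding) was at 222 and 171 FPKM, a change of -22.8% with p = 0.272 in the authors' deposited table. Hsp90b1, which encodes GRP94 and had the highest level of the set, was at 544 and 498 FPKM. Hyou1, an exchange factor for BiP, was at 31.1 and 21.3 FPKM, with a log2 fold change of -0.54 and p = 0.0563 in the authors' deposited table. The remaining BiP partners lay closer to equality. Dnajc3 (p58IPK), a co-chaperone that also restrains PERK, was at 19.4 and 16.8 FPKM. Dnajc10, a co-chaperone that reduces disulfides, was at 26.2 and 22.7 FPKM. Dnajb11, a co-chaperone that binds substrates, was at 52.1 and 52.5 FPKM, and its partner Sdf2l1 at 41.1 and 36.3 FPKM. Manf and Creld2 encode further stress-induced ER proteins: Manf was at 140 and 115 FPKM, while Creld2 was at 20.1 and 19.7 FPKM.

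All 3 protein disulfide isomerase genes, whose products form and rearrange disulfide bonds, had a lower value in hCALR-del52 cells. P4hb was at 467 and 321 FPKM, the largest drop in FPKM of the set. Its log2 fold change of -0.54 equals that of Hyou1, yet its p in the authors' deposited table was 0.278 against 0.0563. Equal folds therefore did not carry equal evidence. Pdia4 was at 104 and 86.2 FPKM and Pdia6 at 107 and 95.4 FPKM.

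The 8 genes of ER-associated degradation all had ratios below 0, from -0.50 to -0.04, and none was called. The genes with the lowest ratios encode the proteins that mark misfolded glycoproteins by trimming mannose. Edem2 was at 41.4 and 29.0 FPKM, with p = 0.0671 in the authors' deposited table, and Edem1 was at 15.0 and 11.3 FPKM with p = 0.128. The lectin gene Os9, whose product hands such proteins to the ligase, was at 35.2 and 31.4 FPKM. Among the genes of the ligase complex, Syvn1 (HRD1), the ubiquitin ligase, was at 25.6 and 22.2 FPKM, and Sel1l, its adaptor, at 21.1 and 20.5 FPKM. Herpud1, a stress-induced component of that complex, was at 77.1 and 66.2 FPKM. The derlin genes, which act in export to the cytosol, were at 28.5 and 26.1 FPKM for Derl1 and 22.3 and 19.6 FPKM for Derl2.

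**Figure D2:**
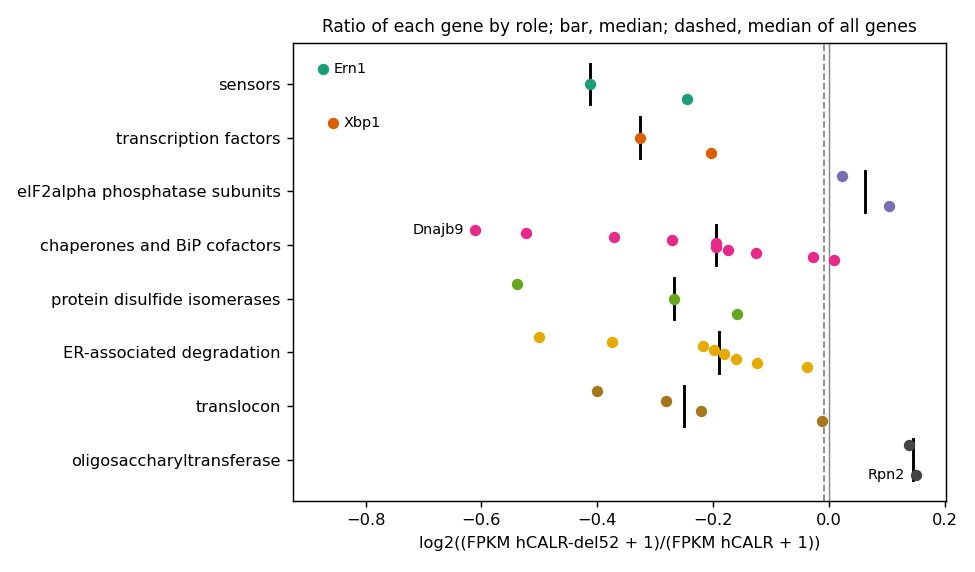
Log2 ratio of hCALR-del52 over hCALR (1 FPKM added to each value) for the 35 genes, 1 point per gene, by role. The eIF2-alpha phosphatase subunits and the oligosaccharyltransferase subunits are the roles in which every gene lies above 0, and Xbp1 and Ern1 lie lowest at -0.86 and -0.87.

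At the entry into the ER, the 4 translocon genes of the set lay below 0 and its 2 oligosaccharyltransferase genes above 0. Sec61b and Sec61a1, which encode subunits of the translocation channel, were at 279 and 211 FPKM and at 104 and 85.3 FPKM. Ssr1, a subunit of the translocon-associated complex, was at 30.2 and 25.7 FPKM, and Sec63, which recruits BiP to the channel, at 34.0 and 33.8 FPKM. Rpn1 and Rpn2, subunits of the oligosaccharyltransferase that adds N-glycans next to the channel, had the highest ratios of the set. Rpn1 was at 308 and 339 FPKM and Rpn2 at 166 and 185 FPKM, with p = 0.734 and p = 0.722 in the authors' deposited table. Other subunits of that enzyme, outside the set, lay below 0 or close to it. Their log2 ratios were -0.28 for Dad1, -0.24 for Ost4, -0.17 for Ddost, -0.02 for Stt3a and 0.01 for Stt3b. Summed over roles, which abundant genes dominate, FPKM changed by -40.2% for the sensors, -25.8% for the disulfide isomerases, -20.4% for the translocon and -13.2% for the chaperones. The sum changed by 10.5% for the 2 oligosaccharyltransferase genes of the set and by -14.7% for all 35 genes, from 3430 to 2925 FPKM. These sums carry no test.

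The authors' test called no change of the size that most of these genes showed. Among all called rows the smallest absolute log2 fold change was 0.81, and 33 of the 35 genes lay under it. Of rows with a mean of at least 10 FPKM and an absolute log2 fold change from 0.4 to 0.6, where 6 genes of the set lie, 0 of 446 were called. From 0.8 to 1.0, where Xbp1 and Ern1 lie, 13 of 88 rows (14.8%) were called. A gene of the set that was not called is therefore not shown to be equal in both groups.

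**Figure D3:**
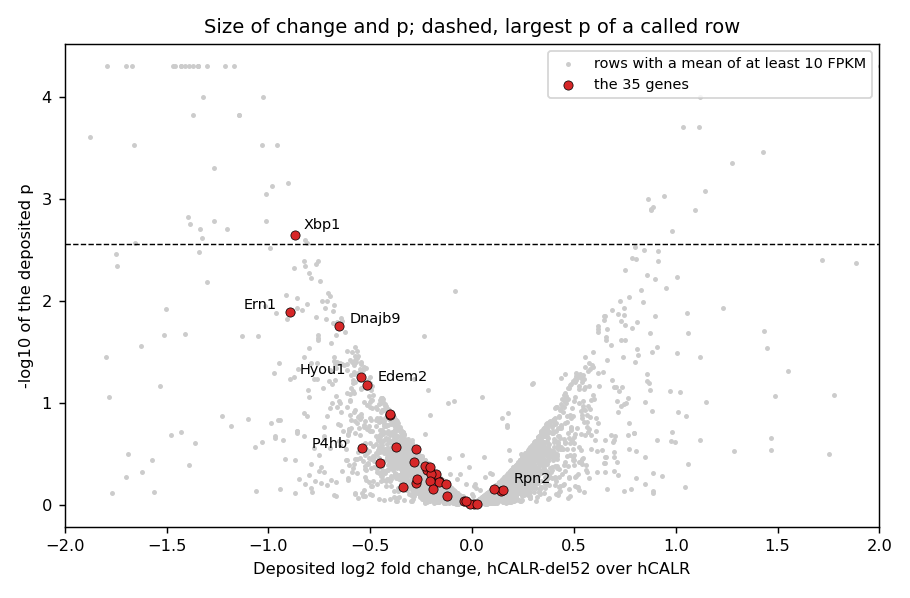
Minus log10 of the authors' p against their log2 fold change for rows with a mean of at least 10 FPKM (grey) and for the 35 genes (red), between -2 and 2. Xbp1 is the red point above the dashed line, which marks the largest p of a called row (0.00275).

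The genes of the set were expressed above most others, and their lower ratios were present at every level. Their median level was 35.2 FPKM against 18.3 FPKM over all genes, and 30 of 35 lay above the latter. Of the 9 genes with a mean of at least 100 FPKM, 7 lay below 0 (median log2 ratio -0.20), while 42.2% of all 751 genes from 100 to 1000 FPKM did, with a median of 0.04. Of the 15 genes from 20 to 50 FPKM, 13 lay below 0 (median log2 ratio -0.18), against 53.8% of 2599 genes and a median of -0.02. The 35 genes lie on 15 chromosomes, and none is on chromosome 17.

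**Figure D4:**
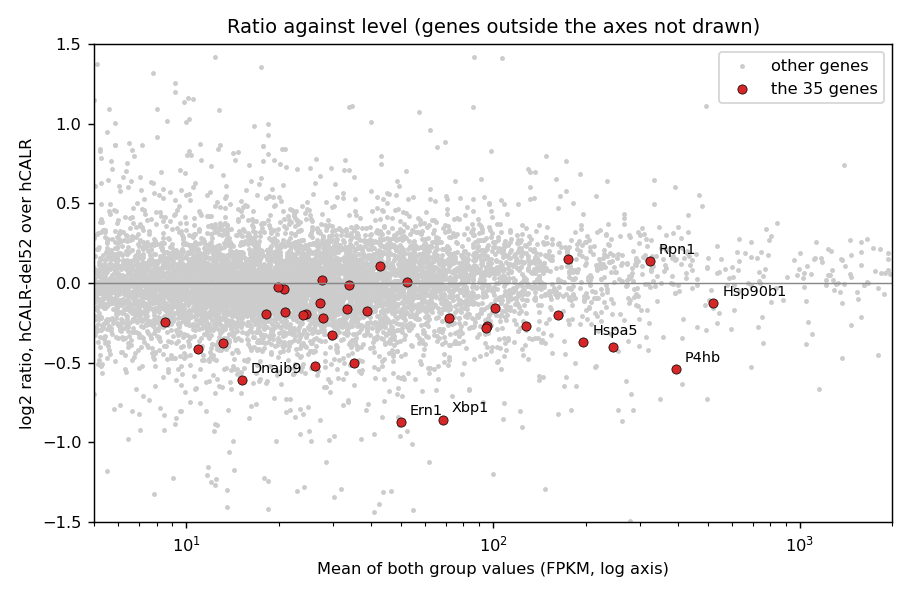
Log2 ratio against the mean of both group values (FPKM, log axis) for all genes with at least 5 FPKM (grey) and the 35 genes (red), each point 1 gene. The red points lie mostly under 0 across the range of levels, from Atf6 at 8.52 FPKM to Hsp90b1 at 521 FPKM.

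Genes around the set were taken from 7 lists of the secretory pathway, 160 measured genes of 186 listed. Of them 1 was called, Ddit4 from the list of ATF4 and CHOP targets. It encodes an inhibitor of mTOR signalling and rose from 21.1 to 46.6 FPKM, with q = 0.00161 in the authors' deposited table. What raised it was not tested. None was called lower. This is 1 call among 160 genes, where 1.84% of all rows were called, 0.967% lower and 0.872% higher. Most measured genes of each list lay below 0, with 1 exception, but the medians of the lists were nearer 0 than that of the set. For comparison, 30 of 35 genes of the set lay below 0 with a median of -0.20. Over all genes the share was 52.0% and the median -0.01. All 24 measured genes of ER-to-Golgi transport lay below 0 (median -0.19), as did 24 of 27 folding enzymes (median -0.15) and 16 of 18 genes of translocation and signal peptide processing (median -0.16). In the other lists, 16 of 22 further genes of ER-associated degradation, 19 of 27 of glycosylation and 12 of 17 stress regulators lay below 0, with medians of -0.10, -0.08 and -0.10. The exception was the list of ATF4 and CHOP targets, of which 11 of 26 lay below 0 with a median of 0.04.

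Values of single genes in these lists follow. Hspa13, an ER-associated HSP70 family member, was at 91.2 and 55.5 FPKM, with p = 0.0150 and q = 0.178 in the authors' deposited table. Vimp, a selenoprotein of the degradation complex, was at 36.5 and 22.3 FPKM (p = 0.00845, q = 0.118 in the authors' deposited table), and Mcfd2, a cargo receptor subunit, at 41.0 and 23.7 FPKM. Ero1l, the oxidase that recharges disulfide isomerases and also in the list of ATF4 and CHOP targets, was at 84.2 and 64.6 FPKM. The coat genes Sec24d and Sec23b were at 18.1 and 12.0 FPKM and at 38.5 and 26.9 FPKM. None of these was called. In the list of ATF4 and CHOP targets, the transcription factor gene Atf5 was at 12.4 and 24.5 FPKM and the proline synthesis gene Pycr1 at 8.80 and 15.3 FPKM, also with no call.

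The naming rule, up to 3 genes of a list by the size of their ratio, gave further genes with no call. Further genes in the list of ATF4 and CHOP targets fell outside it, in both directions. Cebpb, which encodes a bZIP factor, stood at 25.6 and 42.4 FPKM, and the cell death gene Bbc3 at 38.8 and 59.7 FPKM. With lower values, Vegfa was at 68.55 and 49.9 FPKM, Trib3 at 20.6 and 15.3 FPKM and Nupr1 at 11.7 and 8.67 FPKM. None of these was called, and all were named after their values were seen. Cnpy3, a co-chaperone of GRP94, was at 41.2 and 30.7 FPKM. In degradation, the mannosidase gene Man1b1 was at 42.6 and 32.4 FPKM, while Trim13, an ER-anchored ubiquitin ligase, was at 13.9 and 18.7 FPKM. In translocation, Sec61g, the small channel subunit, was at 161 and 129 FPKM, the signal peptidase gene Spcs2 at 52.1 and 40.6 FPKM and Tram1 at 53.6 and 43.5 FPKM. Ostc, an oligosaccharyltransferase subunit like Rpn1 and Rpn2, had a ratio on the other side of 0, at 92.8 and 69.8 FPKM (p = 0.115 in the authors' deposited table). Alg9 and Alg2, mannosyltransferases that build the glycan precursor, were at 28.2 and 19.0 FPKM and at 19.1 and 15.3 FPKM. Among stress regulators, the Atf6 paralogue Atf6b was at 39.0 and 31.0 FPKM and the kinase gene Map3k5 at 22.3 and 17.7 FPKM, while Bax, a cell death gene, was at 107 and 155 FPKM (p = 0.0521 in the authors' deposited table). Calreticulin's own folding cycle gave no call either: endogenous Calr was at 1180 and 906 FPKM, Canx, which encodes its membrane-bound counterpart, at 247 and 248 FPKM, and Pdia3, the isomerase that works with both, at 239 and 220 FPKM. Whether reads of the human transgene count toward Calr was not tested.

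**Figure D5:**
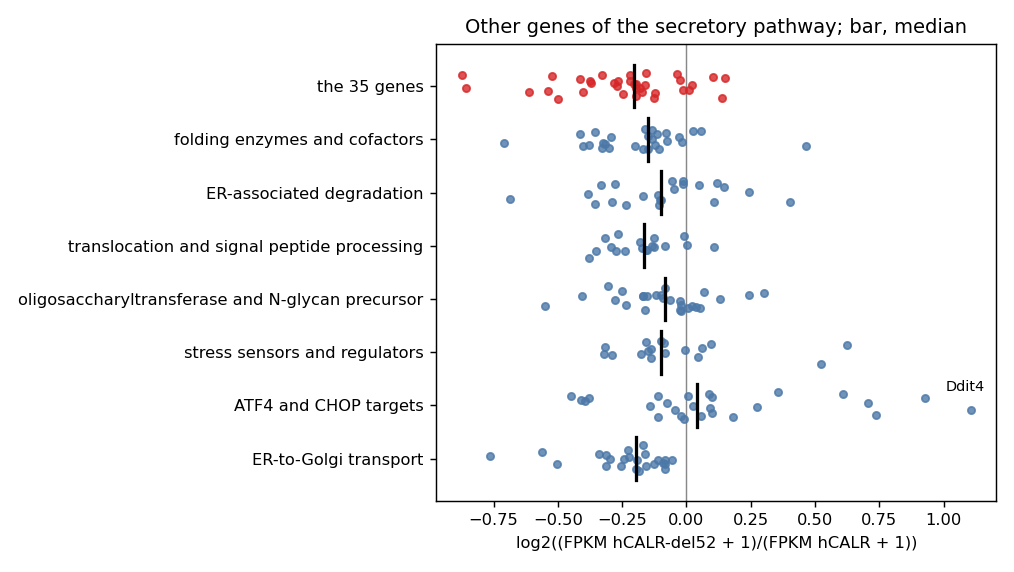
Log2 ratio of hCALR-del52 over hCALR for the 35 genes (red) and for the measured genes of 7 lists (blue), 1 point per gene with random vertical spread, and a black bar at each median. ER-to-Golgi transport lies wholly under 0, and the ATF4 and CHOP targets, with Ddit4 at 1.11, have their median at 0.04.

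Neighbouring genes could add reads to some of these values. The library kit keeps no strand, and 15 of the 35 genes share exon bases with another GENCODE gene, at most 15.7% of their exon bases (Hsp90b1). For 6 genes, Manf, Os9, Ddit3, Ppp1r15a, Syvn1 and Derl2, the table gives the same locus to another row. Xbp1, Ern1 and Hspa5 share neither. The 29 genes with a locus of their own had a median log2 ratio of -0.22.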

How the data were processed

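RNA of 6 samples, 3 per group, was sequenced. Groups were taken from the titles. Reads were aligned to mm10 with TopHat2 2.0.9 (on Bowtie2 2.1.0) and compared over Ensembl genes with Cuffdiff 2.1.1, and low or highly variable genes were dropped by the authors, per the file headers. FPKM was deposited as 1 value per group. The authors' log2 fold change, p-value and q-value were used as deposited, and their test statistic, a score, and their rank only to check the table.

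The members and lists were chosen with earlier results of these data known. Computed here, with Python 3.11.15 and pandas 2.3.3, were log2 ratios of FPKM with a pseudocount of 1, a new Benjamini-Hochberg adjustment, medians, counts and motif matches in RefSeq promoters. The adjustment and the motif search were tested on simulated data. Named genes are all members, Calr, Canx and Pdia3, and from each list the called genes and up to 3 with the largest absolute ratio at a mean of at least 10 FPKM. Coordinates are the table's, with 1 added to starts; after that, 19 of 35 starts equal those of GENCODE M21. Depth per sample is unknown. Alternatives covered thresholds, adjustment, pseudocount, centring and the choice of rows. Protein sequences were not used here.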

Additional observations from a re-analysis of the deposited data

How the results depend on the processing

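The count of 1 called gene in the set, Xbp1, went to 0 under the authors' q under 0.01, Benjamini-Hochberg adjustment over all rows, Bonferroni adjustment, a minimum absolute log2 fold change of 1, and a new adjustment over rows with at least 1 FPKM in both groups. Bonferroni adjustment could not have kept the call, since no p of the table can pass it. Nor could the fold change minimum, since the log2 fold change of Xbp1 was -0.87. The count stayed 1 with rows of several identifiers allowed and, an alternative chosen after seeing the data, without genes that share a locus. The 1 call among the lists, Ddit4, went to 0 under Bonferroni adjustment only, which no p of the table can pass, since the smallest is 5e-05. The median log2 ratio of the set ranged from -0.19 to -0.22 over 8 alternatives, 2 of them chosen after seeing the data, and 30 genes lay below 0 under each of 5. No gene of the set changed sign with the pseudocount or centring, but this could hardly have come out otherwise. A pseudocount cannot change the sign of a ratio. The medians used for centring were only -0.0086 and -0.0049, while the ratio nearest below 0 was -0.012 (Sec63). The unchanged count of 30 is therefore no added support. No paired analysis was possible because no values per replicate were at hand, so that no replicate could be left out. The limits set by depth are unknown.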

Other observations

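Outside the set, 13 measured genes carry an ERSE or ERSE-II in their RefSeq promoter window, and 7 of them had a lower FPKM in hCALR-del52 cells, with a median log2 ratio of -0.02. They include Calr and Canx, whose values are given above. Among the abundant ones with a lower value, Nucb1, a calcium-binding protein of the Golgi, was at 583 FPKM with hCALR and 491 FPKM with hCALR-del52, and Rbm39, a splicing factor, at 242 and 197 FPKM. Krtcap2, an oligosaccharyltransferase subunit, was at 183 and 181 FPKM. The genes with a higher value included Hnrnpa3, an RNA-binding protein, at 251 and 272 FPKM, Lrif1 at 24.3 and 26.1 FPKM and Rcl1 at 60.5 and 61.2 FPKM. These examples were chosen after their values were seen. None of the 13 was called by the authors' test. The 8 genes of the set with either element had a median of -0.18, and the difference from the 13 was not tested.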
